A study of Luffa aegyptiaca with 4 samples.

Results

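LOX27 (Laeg_LOX27.t01) and LOX29 (Laeg_LOX29.t01) are the 2 lipoxygenase transcripts of the sponge gourd Luffa aegyptiaca whose level under heat stayed near or above that in control. They were chosen by their measured values. Of the 29 rows named as lipoxygenases, among 48619 rows in all, 12 had a mean of at least 1 FPKM (mapped fragments per kilobase of transcript length, adjusted for library size) over the 4 libraries. In 2 of these 12, the mean log2(FPKM + 1) under heat was not more than 0.5 below that in control. The difference between the groups was therefore used to choose these transcripts, and it is given below as a description with no test. Of all 18186 transcripts at or above the same minimum, 58.6% met the same limit.

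Total RNA was sequenced from 2 control samples and 2 samples under heat stress, labelled as biological replicates 1 and 2 of each group. The labels give no organ, cultivar, age, temperature or length of treatment, and the source is named only as tissue. Apart from the lipoxygenases, the rows carry a number and no gene name, so the tissue could not be checked against marker genes. Nothing in the labels says whether the replicates came from separate plants.

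Lipoxygenases are iron-containing dioxygenases that insert molecular oxygen into polyunsaturated fatty acids such as linoleic and linolenic acid. The resulting hydroperoxides feed several branches of oxylipin synthesis: allene oxide synthase leads towards jasmonates, and hydroperoxide lyase towards volatile aldehydes and alcohols. Plant lipoxygenases are classed by the carbon of the fatty acid that they oxygenate, and cucurbits carry many copies of the gene. The class of LOX27 and of LOX29 is not given in the sources used here, so neither is placed in one of these branches.

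Summed FPKM lay between 551921 and 599611 per library, and the number of reads behind it is unknown. Pearson's r of log2(FPKM + 1) across transcripts was 0.976 or higher within a group and at most 0.603 between a control and a heat library. Heat gave higher values for 30.9% of these transcripts and lower values for 42.5% (limma, adjusted p under 0.05), or 5617 and 7735 transcripts. The excess of lower ones depended on scaling: the counts were 6717 higher and 6573 lower with the median of ratios, and 6507 and 6848 with quantile normalization. The median tested transcript lay 0.20 lower under heat on the log2 scale, and 0.02 higher after rescaling the libraries by the median of ratios.

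LOX27 was the more abundant of the pair and had the higher level under heat. Its values were 10.4 FPKM in control replicate 1, 11.4 in control replicate 2, 16.7 in heat replicate 1 and 18.3 in heat replicate 2. The lower heat library was above the higher control, in the contrast that the rule used. The share of all tested transcripts whose groups separate like this is not given here, so nothing is read from it. The mean level was 10.9 ± 0.739 FPKM in control and 17.5 ± 1.07 FPKM under heat (SD, n = 2 per group), a 1.60-fold difference. Over the pairs of a heat and a control library, the ratio ran from 1.46 to 1.75. On the log2(FPKM + 1) scale the difference in means was 0.63, while the replicates of a group were 0.13 apart in control and 0.12 apart under heat. In these bulk samples, a changed number of cells carrying a transcript and a changed amount of it per cell cannot be told apart.

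LOX29 was a low-level transcript whose level was nearly the same in control and heat. Its values were 2.28 FPKM in control replicate 1, 2.35 in control replicate 2, 2.08 in heat replicate 1 and 2.22 in heat replicate 2. As deposited, both heat libraries were below both controls, by a small margin, and nothing is read from that order either. The mean level was 2.32 ± 0.0451 FPKM in control and 2.15 ± 0.0972 FPKM under heat (SD, n = 2 per group), a heat-to-control ratio of 0.93. The difference in mean log2(FPKM + 1) was -0.08, while the replicates were 0.03 apart in control and 0.06 apart under heat.

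The scaling of the libraries decided on which side of control LOX29 lay under heat. After median-of-ratios rescaling, LOX29 stood at 2.06 and 2.17 in the controls and at 2.31 and 2.35 under heat. The difference in mean log2 for LOX29 was then 0.10. After quantile normalization, which gives each library the same distribution of values, the difference for LOX29 was 0.21. LOX27 was higher under heat with each scaling: its ratio of means was 1.90 with the median of ratios and 1.81 with quantile normalization. Relative to the median tested transcript, which also moves with scaling, LOX27 stood 0.84, 0.84 and 0.81 above it on the log2 scale (as deposited, median of ratios, quantile). LOX29 stood 0.13, 0.07 and 0.23 above that median in the same order.

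**Figure D1:**
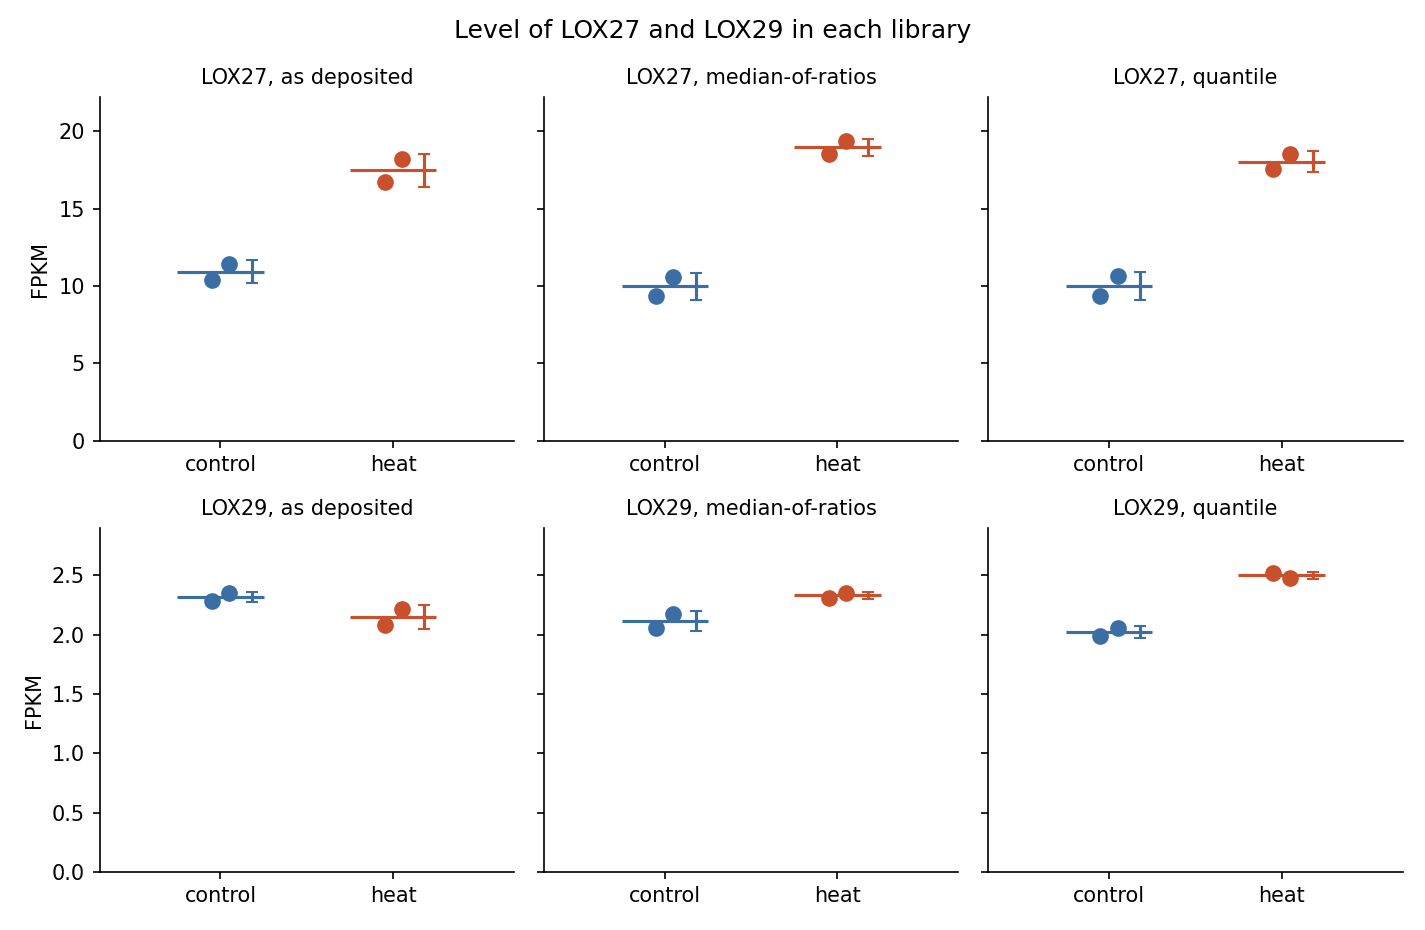
Level of LOX27 (top) and LOX29 (bottom) in FPKM in the 2 control and 2 heat libraries, as deposited and after median-of-ratios and quantile scaling; points are libraries, lines are group means and bars are 1 SD. LOX27 is higher under heat in every panel, while LOX29 lies below control as deposited (2.15 against 2.32 FPKM) and above it after either rescaling.

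LOX27 exceeded LOX29 in each of the 4 libraries, a comparison of levels per transcript length that the choice of these transcripts did not fix. The ratio of LOX27 to LOX29 was 4.55 and 4.87 in control, and 8.05 and 8.23 under heat. Over the libraries of both groups, the mean log2 ratio was 2.63 ± 0.46 (SD, n = 4), a 6.19-fold geometric mean ratio. That SD takes in the difference of 0.79 between the groups, so it is not a spread between replicates. The log2 ratio was above 0 in 4 of 4 libraries (exact two-sided sign-flip permutation test, p = 0.13, the smallest value that 4 libraries allow). With the same sign in each library the test could return no other value, so it adds nothing to the ratios themselves. The ratio averaged 4.71 ± 0.227 in control and 8.14 ± 0.130 under heat (SD, n = 2 per group). Scaling a library by a single factor leaves this ratio unchanged. The heat-to-control quotient of 1.73 thus does not depend on median-of-ratios rescaling. Quantile normalization does change it: the ratio of means was then 1.81 for LOX27 and 1.24 for LOX29, against 1.60 and 0.93 as deposited. Unlike the levels, the quotient rests on the contrast that the rule used, so it is given as a description.

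The order of levels within the family is given as a description. The rule took the members that stayed level or were higher and left those that were lower, so a higher place for the pair under heat follows from the choice. LOX27 was the fifth most abundant lipoxygenase in each control library and the most abundant in each heat library. In control, its range of 10.4 to 11.4 FPKM overlapped that of the next lower member, LOX1 (10.2 to 10.9 FPKM). Within each control library LOX27 was the higher, at 1.02 and 1.05 times LOX1, a margin smaller than the step between the replicates. Its range lay below that of the next higher member, LOX2 (12.5 to 14.4 FPKM). Under heat, LOX27 was next above LOX12, the leading member in control, whose range of 13.03 to 14.56 FPKM did not overlap that of LOX27.

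LOX29 ranked 12 of 29 in each control library and 6 of 29 in each heat library. In control, its neighbours were LOX3 above (3.05 to 3.47 FPKM) and LOX16 below (0.578 to 0.678 FPKM). Under heat, they were LOX1 above (3.24 to 3.36 FPKM) and LOX5 below (1.45 to 1.75 FPKM). None of these 4 ranges overlapped that of LOX29. The level of LOX29 itself differed little between the groups, so its rank moved as other members took lower values.

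Ratios within a library show this exchange of places. LOX27 stood at 1.02 and 1.05 times the level of LOX1 in control, and at 5.17 and 5.43 times that level under heat. Against LOX12, LOX27 went from 0.112 and 0.122 times its level in control to 1.28 and 1.25 times its level under heat. LOX29 stood at 0.749 and 0.677 times the level of LOX3 in control and at 3.30 and 4.98 times that level under heat. The wider spread of the last pair came mainly from LOX3, which stood at 0.631 and 0.445 FPKM in the heat libraries. The names give no enzyme class for these members either.

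**Figure D2:**
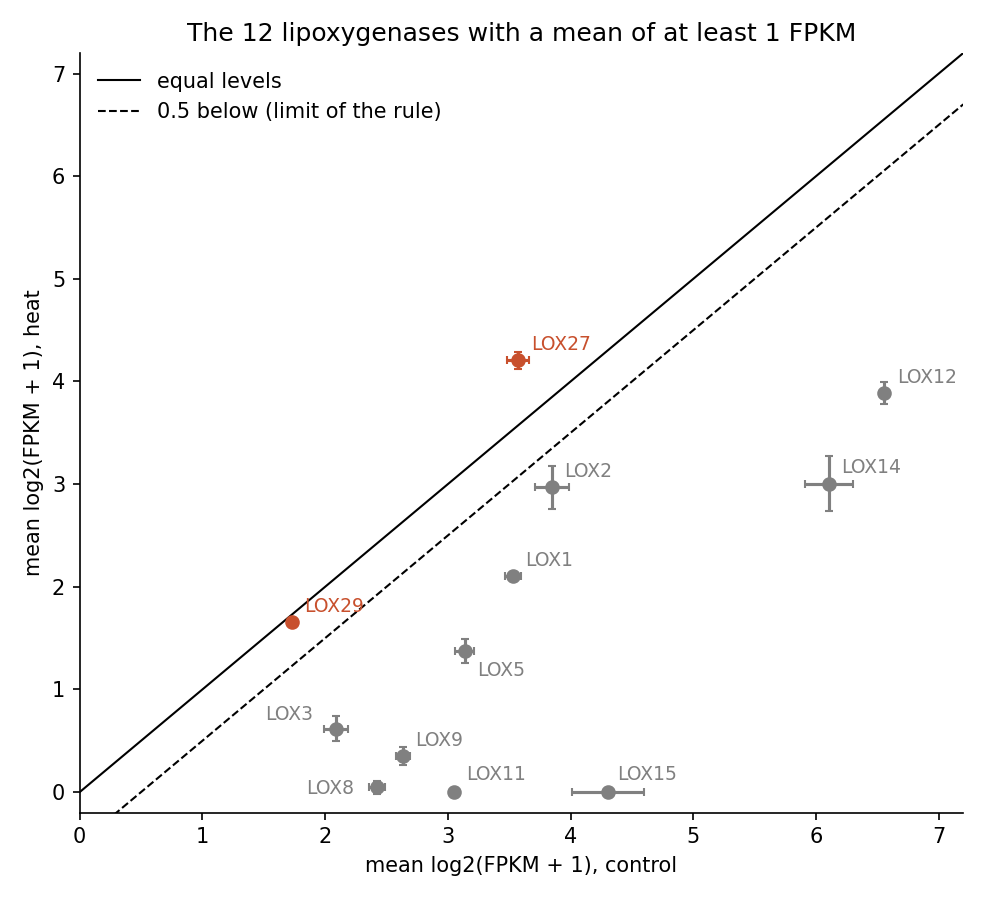
Mean log2(FPKM + 1) in control (x axis) and under heat (y axis) for the 12 lipoxygenases with a mean of at least 1 FPKM; bars are 1 SD over 2 libraries, the solid line marks equal levels and the dashed line the limit of 0.5 below. LOX27 lies 0.63 above the line of equal levels, LOX29 lies 0.08 below it, and the next member, LOX2, lies 0.88 below it.

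Among the 12 lipoxygenases with a mean of at least 1 FPKM, the limit that chose the pair fell in a gap. As deposited, LOX29 was just inside the limit, at -0.08 on the log2 scale, and LOX2 just outside it, at -0.88. Of the rows with a lower mean, LOX10 (-0.11), LOX18 (-0.28), LOX26 (-0.42) and LOX16 (-0.70) lay between these values. LOX2 lay nearer the limit after rescaling, at -0.66 with the median of ratios and -0.65 with quantile normalization. LOX2 stood at 12.5 and 14.4 FPKM in control and at 6.06 and 7.68 FPKM under heat. The other minimum, a mean of 1 FPKM, had LOX3 just inside it, at a mean of 1.90 FPKM, and LOX16 as the highest outside, at 0.314 FPKM. LOX29 had a mean of 2.23 FPKM and LOX27 one of 14.2 FPKM.

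The other 10 lipoxygenases above the minimum had differences between -4.31 and -0.88 on the log2 scale, with a median of -2.33. The rule placed them below the limit, so that range describes how they were set apart. All 10 were lower under heat (limma, adjusted p under 0.05 over all tested transcripts), beside 42.5% of the tested transcripts. The rule had used the same contrast to set them apart, so nothing is read from that count. The remaining 17 rows of the family were below the minimum. Of these, 9 were listed at 0 in every library and the other 8 reached at most 0.678 FPKM. Without the minimum, 9 of the rows above 0 in some library would have met the limit, and the 9 rows at 0 throughout have no difference to judge. The added rows were LOX10, LOX13, LOX18, LOX23, LOX24, LOX25 and LOX26. Control values were 0 for LOX23, LOX24 and LOX25, which stood between 0.0338 and 0.146 FPKM under heat, and LOX13 was above 0 in heat replicate 2 alone, at 0.0413 FPKM. LOX10, at 0.161 FPKM in control replicate 2, was listed at 0 in the other libraries. LOX18 and LOX26 met the limit after 1 was added to their values, although their mean FPKM was 5.95-fold and 31.4-fold lower under heat.

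The share of the family's transcripts held by the pair also follows in its direction from the choice, and its size is given as a description. LOX27 made up 4.32% and 4.53% of the summed FPKM of the 29 rows in the controls, and 32.2% and 33.2% under heat. LOX29 made up 0.950% and 0.929% in the controls and 3.997% and 4.036% under heat. Together they held 5.37% ± 0.130 in control and 36.7% ± 0.775 under heat (SD, n = 2 per group).

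Most of that shift in share lay in the rest of the family. The other 27 rows summed to 233.4 ± 7.86 FPKM in control and 33.8 ± 0.885 FPKM under heat (SD, n = 2 per group), a 6.90-fold difference. The pair summed to 13.2 ± 0.784 FPKM in control and 19.6 ± 1.17 FPKM under heat. LOX27 gained 6.57 FPKM on average, while the other 27 rows were 199.5 FPKM lower. The share of LOX29 was 4.28 times higher under heat although its deposited level was not. The share of LOX27 was 7.39 times higher, with a level that was 1.60 times that of control.

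**Figure D3:**
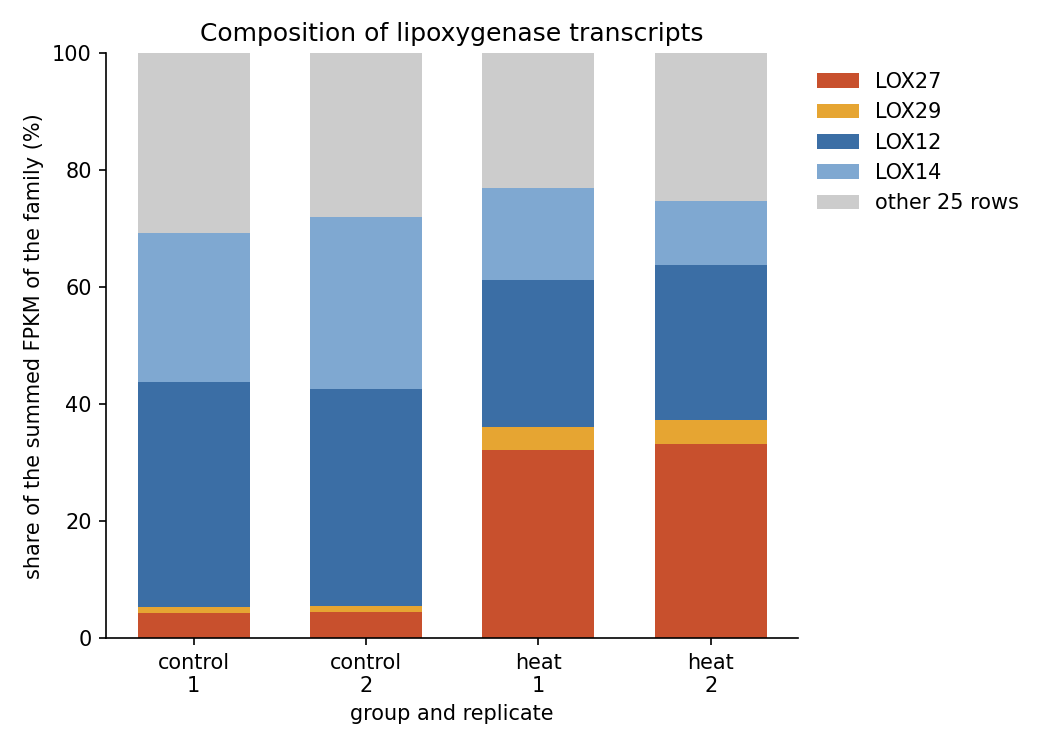
Share of each library's summed lipoxygenase FPKM (%) held by LOX27, LOX29, LOX12, LOX14 and the other 25 rows, by group and replicate. LOX27 goes from 4.32% and 4.53% in the controls to 32.2% and 33.2% under heat, and LOX29 from 0.950% and 0.929% to 3.997% and 4.036%.

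Set among all transcripts, neither signed difference was extreme, while that of LOX29 was among the smallest in size as deposited. Of the 18186 tested transcripts, 26.7% had a higher difference than LOX27 and 46.1% a higher one than LOX29. The difference of LOX27 was larger in size than that of 35.5% of the transcripts, and that of LOX29 larger than that of 4.30%. Both percentages are for values as deposited, and the size of the difference of LOX29 changed with scaling. In control, 52.8% of the tested transcripts had a lower level than LOX27 and 17.0% a lower level than LOX29. Under heat these shares were 68.7% and 21.2%.

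Transcripts of like abundance gave a closer frame. For LOX27, 2007 others had a control level within 0.25 on the log2(FPKM + 1) scale. Their median difference was -0.26, the interquartile range ran from -1.24 to 0.58, and 23.4% of them lay above LOX27. For LOX29, 1531 others had a like control level. Their median difference was -0.33, the interquartile range ran from -1.08 to 0.53, and 3.53% of them had a difference smaller in size than that of LOX29. That percentage is for values as deposited, where the difference of LOX29 was -0.08, in the contrast that the rule used. With the median of ratios the difference of LOX29 was 0.10, and with quantile normalization 0.21. The replicates of LOX29 were also closer to each other than is usual at this level: they were 0.03 apart in control, where the median for transcripts of like level was 0.19, and 0.06 apart under heat, where it was 0.24. For LOX27 the replicate differences of 0.13 and 0.12 stood beside medians of 0.12 and 0.18.

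**Figure D4:**
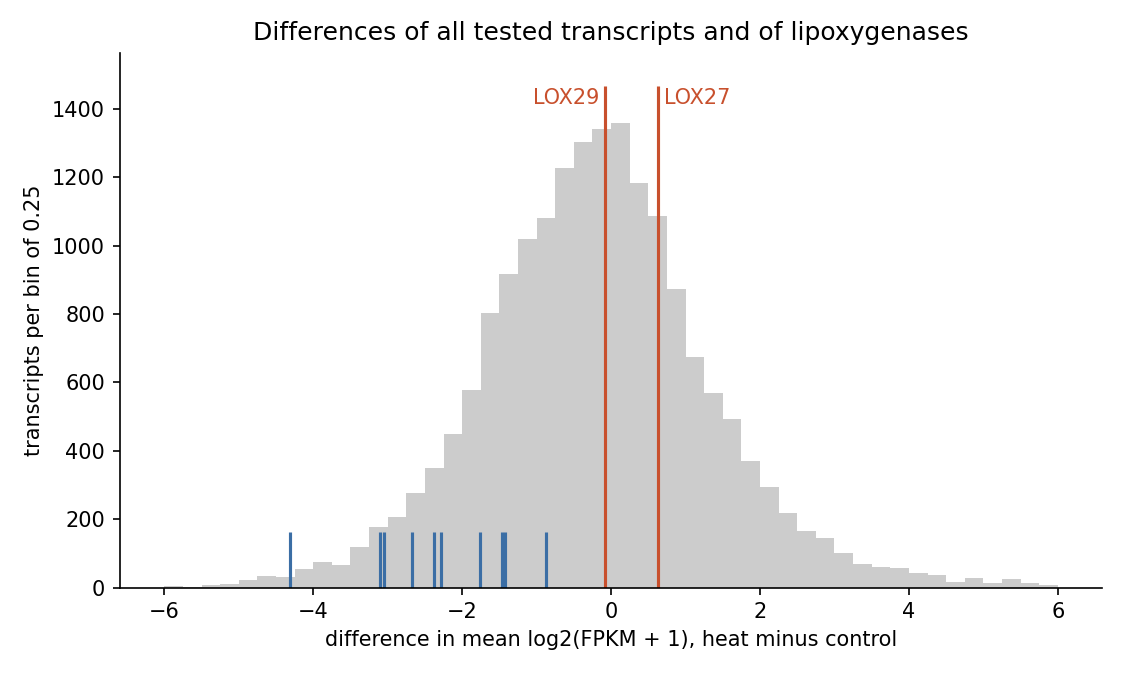
Number of tested transcripts (y axis, in bins of 0.25) by heat-minus-control difference in mean log2(FPKM + 1) (x axis, shown from -6 to 6, which leaves out 126 transcripts). Orange lines mark LOX27 at 0.63 and LOX29 at -0.08, both in the body of the distribution, and short blue lines mark the other 10 lipoxygenases, between -4.31 and -0.88.

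Unnamed transcripts with profiles close to those of LOX27 and LOX29 were counted. Likeness was measured as the root-mean-square difference in log2(FPKM + 1) over the 4 libraries, so it takes in level and pattern together. Within a difference of 0.25 there were 302 transcripts for LOX27 and 220 for LOX29, of 18185 compared. The counts usual for other transcripts of like level are not given here, so these numbers show nothing particular to the pair. With a pseudocount of 0.1 in place of 1, the numbers were 254 and 83, so the count for LOX29 depends on the scale. The nearest lipoxygenase was LOX2 for LOX27, at 0.90, and LOX3 for LOX29, at 0.78. The rule had set the other members apart by their difference, so their distance from LOX27 and LOX29 is partly fixed by the choice.

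The transcript closest to LOX27 was Luffa_aegyptiaca44450.t01, at a root-mean-square difference of 0.05. It stood at 10.5 and 10.9 FPKM in control and at 16.2 and 17.7 FPKM under heat. The next was Luffa_aegyptiaca37284.t01, at 0.07, with 10.2 and 10.9 FPKM in control and 17.4 and 19.7 FPKM under heat. Both have higher values under heat, as LOX27 does, which follows from their choice by closeness to it over these libraries.

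The transcript closest to LOX29 was Luffa_aegyptiaca02561.t01, at 0.05, with 2.29 and 2.30 FPKM in control and 1.94 and 2.35 FPKM under heat. The next was Luffa_aegyptiaca34083.t01, at 0.06, with 2.25 and 2.61 FPKM in control and 2.03 and 2.28 FPKM under heat. In both, the ranges of the groups overlapped. No gene name is paired with these row numbers, and 4 libraries in 2 groups give little power to tell profiles apart.

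Lipoxygenase genes can be near copies of one another. How reads that match several copies were assigned is not given in the sources used here, so the split of reads between LOX27, LOX29 and other members is uncertain.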

How the data were processed

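RNA-seq was done on 2 control and 2 heat-stressed samples. The authors deposited 1 table of FPKM values with 1 column per sample; per the submitters' processing notes, fastp 0.20.1, HISAT2 2.2.1 and StringTie 2.0 were used. The sources used here name no genome build, annotation or settings. No step worth 1 read was found in the low values: the commonest ratio between libraries (within 0.0015 on the log2 scale, values under 0.3 FPKM) held at most 0.791% of rows. Depth is therefore unknown, no counting interval is given, and a value of 0 is described as listed at 0.

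Columns were matched to samples by title; 0 columns belonged to other samples. LOX27 and LOX29, the lists and the tests were chosen with earlier results of these data known. Values were analysed as log2(FPKM + 1), a scale that understates differences of low transcripts. Rows with a mean of at least 1 FPKM (18186) were fitted with limma 3.58.1 in R 4.3.3, with the group as the only term, a mean-variance trend and Benjamini-Hochberg adjustment (two-sided, threshold 0.05). The fit was tested on simulated data. With 2 libraries per group, p-values measure only the spread between these libraries, which may be technical. The ratio of LOX27 to LOX29 was tested by exact sign flips. Median-of-ratios factors came from rows above 0 in each library. The rule for named transcripts took the pair, the other lipoxygenases and the 2 unnamed rows nearest in profile to each of the pair. Alternatives covered the pseudocount, the minimum, both scalings, moderation without a trend, a replicate block and leaving out single libraries.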

Additional observations from a re-analysis of the deposited data

How the results depend on the processing

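The selection rule gave LOX27 and LOX29 with a pseudocount of 0.1, after both rescalings and without each library in turn (2 each time); without a minimum it gave 9 of the rows above 0 and with a minimum mean of 5 FPKM it gave 1, LOX27. The difference in mean log2 with the median of ratios and with quantile normalization was 0.86 and 0.79 for LOX27, against 0.63; that of LOX29 was 0.10 and 0.21, against -0.08. Without 1 library at a time, LOX27 lay between 0.57 and 0.70 and LOX29 between -0.11 and -0.04. After quantile normalization the family shares of LOX27 were 4.09% in control and 31.5% under heat, and those of LOX29 0.828% and 4.36%. Without 1 library the mean log2 ratio of LOX27 to LOX29 lay between 2.49 and 2.78. With a pseudocount of 0.1, 83 transcripts were close in profile to LOX29, against 220. With a minimum of 5 FPKM, 5 other lipoxygenases were tested and 5 were lower; without control replicate 2, 9 of 10 were. The rule used the same contrast, so these counts say nothing of stability. Without 1 library, 4353 to 5264 transcripts were higher and 5787 to 7713 lower under heat, from fits that assume the lone sample varies like the other group, against 5617 and 7735. With the replicate block 5563 were higher, 7586 lower, and 10 other lipoxygenases lower; same-numbered libraries deviated with a correlation of -0.07 across transcripts, over 2 pairs, so the numbers were not taken as pairs. Unknown read depth limits what can be said of values under 1 FPKM.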
